A study of Mus musculus with 12 samples.

Results

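Ligand and receptor genes of the interleukin-1 family were measured in cultured mouse mast cells, namely the ligand genes Il1a, Il1b and Il33, the antagonist gene Il1rn, and the receptor genes Il1r1, Il1r2, Il1rl1 and Il1rap. They were chosen by symbol, and all 8 of 8 were found among the 16234 genes of the count table. The cells were bone marrow-derived mast cells (BMMCs), grown for 4 to 8 weeks in IL-3 and SCF at 10 ng/mL each, from mice whose labels give the genotype as wild type (WT), as heterozygous (HZ) or as knockout of Elk4 (KO). Purity is given only as more than 80% of cells positive for both surface markers CD117 and FcεRI. Elk4 encodes an Ets transcription factor of the ternary complex family. The knockout was conventional, thus present in every cell and not driven by a Cre, on a C57BL/6N background, with WT littermates as controls. Each genotype was sequenced untreated, called unstimulated here, and after IgE-DNP/HSA stimulation. For stimulation the cells were sensitized overnight with anti-DNP-IgE at 0.5 µg/ml and then given the antigen DNP-HSA at 100 ng/mL for 1 hour. This gave 6 groups of 2 libraries, 12 in all. Whether the untreated cells also received IgE is not given in the labels, nor is whether the replicates came from separate mice or cultures. The p-values thus measure the spread between these libraries, which may be technical. A difference between genotypes can therefore not be told apart from a difference between mice or cultures.

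IL-1 alpha and IL-1 beta are proinflammatory cytokines that act through the same receptor, a pair made of IL1R1 and the accessory chain IL1RAP. IL-1 receptor antagonist, encoded by Il1rn, occupies IL1R1 without signalling, and IL1R2 binds IL-1 as a decoy that lacks a signalling domain. IL-33 is an alarmin released from damaged barrier cells, and its receptor ST2, encoded by Il1rl1, pairs with the same accessory chain and is a well-known surface receptor of mast cells, in which IL-33 elicits cytokine production.

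The promoters of Il1a, Il1b and Il1r2 are shown because these 3 members passed the edgeR test and the 2-fold threshold on stimulation in WT cells. Each run is the RefSeq sequence from 250 bases before to 50 bases after the annotated start in GRCm38.p6, read 5′ to 3′ on the strand of the gene, and capitals mark every motif found. Il1a lies at chr2:129309923-129310222 and Il1b at chr2:129371090-129371389, both on the minus strand, and Il1r2 at chr1:40085843-40086142 on the plus strand. Within Il1a the capitals are a TATA box (TATAAA) 32 bases before the start and an AP-1 motif (TGANTCA) 12 bases before it. Within Il1b they are a TATA box 31 bases before the start and NFAT cores (GGAAAA) 69 and 16 bases before it, and within Il1r2 they are E boxes (CACGTG) 238 and 195 bases before the start.
Il1a: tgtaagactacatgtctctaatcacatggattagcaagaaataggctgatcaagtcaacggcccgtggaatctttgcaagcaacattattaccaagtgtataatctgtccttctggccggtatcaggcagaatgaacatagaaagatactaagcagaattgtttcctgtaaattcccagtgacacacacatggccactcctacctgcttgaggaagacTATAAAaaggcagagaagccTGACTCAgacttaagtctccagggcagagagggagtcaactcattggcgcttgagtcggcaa
Il1b: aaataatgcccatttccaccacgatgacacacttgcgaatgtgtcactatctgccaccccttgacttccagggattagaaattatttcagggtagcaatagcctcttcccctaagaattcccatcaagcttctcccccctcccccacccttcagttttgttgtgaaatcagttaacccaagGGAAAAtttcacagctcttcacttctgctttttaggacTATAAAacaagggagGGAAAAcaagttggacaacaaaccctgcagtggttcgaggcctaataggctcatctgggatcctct
Il1r2: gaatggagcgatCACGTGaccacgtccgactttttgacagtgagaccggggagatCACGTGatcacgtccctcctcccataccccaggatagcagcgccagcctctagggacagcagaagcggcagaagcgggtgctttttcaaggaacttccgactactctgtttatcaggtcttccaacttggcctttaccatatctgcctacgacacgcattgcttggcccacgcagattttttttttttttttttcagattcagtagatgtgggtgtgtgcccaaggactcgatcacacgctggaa

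Motifs of 9 kinds were searched on both strands of all 32851 RefSeq windows of this length. The shares below are of windows with any match, at any position and on either strand. The share with a match at a given position, or with repeated matches, was not computed. TATAAA was held by 13.6% of the windows, TGANTCA by 7.81%, GGAAAA by 23.4% and CACGTG by 7.15%. The other motifs had no match in the 3 windows shown. They were the extended Ets motif CCGGAA, held by 14.9% of the windows, the cyclic AMP response element TGACGTCA (1.79%), the C/EBP motif TTGCNNAA (10.8%), the NF-kappa B motif (8.46%) and the CArG box (1.63%). The shorter Ets core GGAA was not searched for, and the NFAT core GGAAAA contains it. A match is a description of the letters only. In the RefSeq annotation Il1a and Il1b are neighbouring protein-coding genes on chromosome 2, and Il1r2, Il1r1, Il1rl2, Il1rl1 and Il18r1 follow one another on chromosome 1.

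The 12 libraries held 29697958 to 35531667 counts on genes. All 8 mast cell markers, including Kit and Fcer1a, were detected in every group, with a summed level of 46407 to 57056 CPM (counts scaled to the normalized library size), whereas the summed level of 5 neutrophil markers found in the table was at most 0.269 CPM. The mast cell sum does not show differences of single markers. Among these, Hdc had means of 126 CPM in WT, 109 in HZ and 17.0 in KO unstimulated. After stimulation its means were 1111, 436 and 303 CPM in that order. Basophil markers summed to 465 to 674 CPM, nearly all of it Cd200r3, with group means of 5.13 to 10.9 CPM for Mcpt8 and 0.386 to 1.32 CPM for Prss34. Summed levels were 0.858 to 4.97 CPM for eosinophil markers and at most 0.169 CPM each for T cell, B cell and stromal markers. Counts of Elk4 itself did not follow the labels. The libraries labelled KO held 2613 and 2253 counts unstimulated against 2426 and 2740 in WT, and 1867 and 1971 counts stimulated against 2322 and 1995. By edgeR the log2 difference of KO from WT was -0.19 unstimulated (adjusted p 0.00872) and -0.10 stimulated (adjusted p 0.208). That of HZ from WT was 0.24 unstimulated (edgeR adjusted p 0.000484) and -0.17 stimulated (edgeR adjusted p 0.0243). The paper reports that it checked the deletion by western blot in BMMCs from WT, HZ and KO mice. Counts over a whole gene do not show a deletion inside it, so the genotypes below are those of the labels. In bulk RNA, fewer cells of a type and less RNA per cell cannot be told apart.

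Levels between genes were compared on the authors' FPKM, which are divided by gene length. The gene for the IL-33 receptor was far above the other members. Il1rl1 ranged from 725 to 965 FPKM, and it was between the 32nd and the 67th most abundant gene of 16234 in every library. Il1r2 followed with a median of 15.6 FPKM (8.58 to 22.0), then Il1b with 3.49 FPKM (0.260 to 29.9), Il1rap with 2.09 FPKM (1.80 to 4.00) and Il1a with 0.451 FPKM (0.0158 to 3.33). Il33, Il1r1 and Il1rn stood at the bottom with medians of 0.0108, 0.0105 and 0 FPKM. Il1rl1 was the only member whose range over the 12 libraries did not overlap that of the next gene in this order, although Il1a was under Il1rap in 10 of 12 libraries and above Il33 in all 12.

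**Figure D1:**
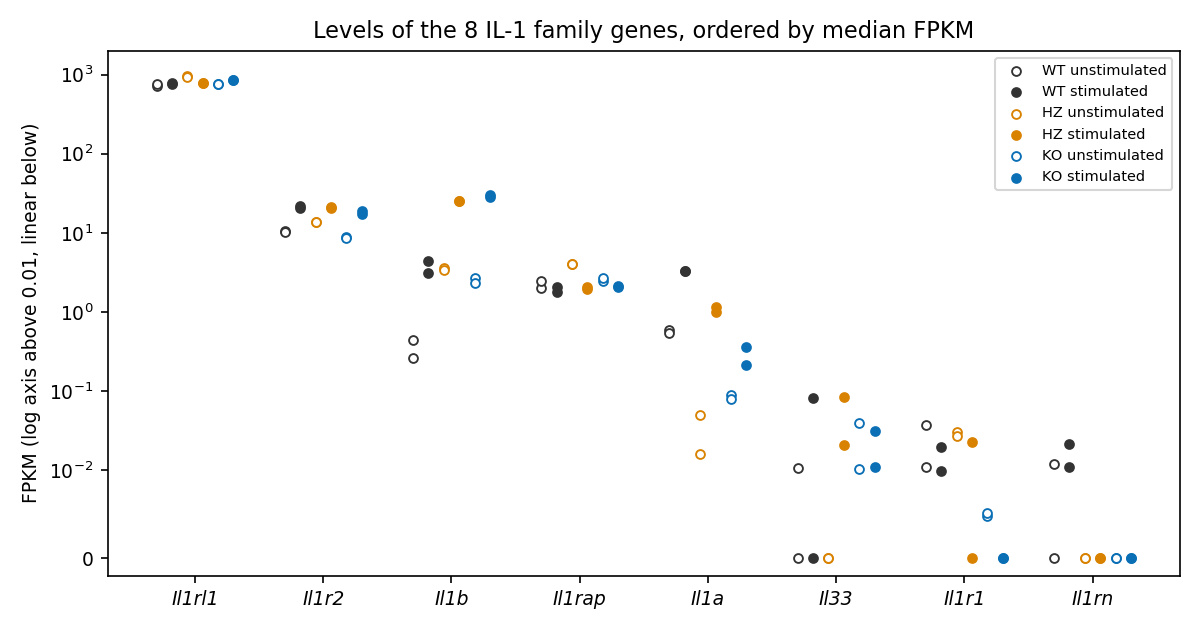
FPKM of the 8 genes in each of the 12 libraries on an axis that is logarithmic above 0.01 and linear below it, with 1 point per library, open for unstimulated and filled for stimulated cells. Il1rl1 lies between 725 and 965 FPKM in all libraries, Il1b spans 0.260 to 29.9 FPKM, and Il33, Il1r1 and Il1rn lie at or below 0.0851 FPKM.

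Il1a RNA was induced by stimulation in each genotype and was highest in WT cells in both conditions. In unstimulated cells Il1a had 35 and 33 counts in the WT libraries, 1 and 3 in the HZ libraries and 6 and 5 in the KO libraries. After stimulation the WT libraries had 211 and 217 counts, the HZ libraries 80 and 63 and the KO libraries 13 and 23. Both stimulated libraries of a genotype were above both unstimulated ones, and the stimulated KO libraries were below the unstimulated WT libraries. The normalized level went from 1.00 ± 0.0800 to 7.19 ± 0.129 CPM in WT (mean ± SD, n = 2), from 0.0599 ± 0.0440 to 2.28 ± 0.217 CPM in HZ and from 0.150 ± 0.0135 to 0.633 ± 0.235 CPM in KO.

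The log2 fold change of Il1a on stimulation was 2.84 (SE 0.34) in WT, with an edgeR adjusted p of 1.12e-09. It was 2.05 (SE 0.56) in KO, with an edgeR adjusted p of 0.00229. In HZ the unstimulated level rested on 4 counts over both libraries, and the ratio of the summed counts was 38.8 (95% counting interval 14.8 to 144; edgeR adjusted p 2.98e-11). The KO call rested on 1 library, since without the second stimulated KO library the log2 fold change was 1.61 and the edgeR adjusted p was 0.0718. The calls in WT and HZ held without any 1 of the libraries compared.

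Compared with WT, Il1a was lower in the libraries labelled KO and HZ. In unstimulated cells the log2 difference from WT was -2.70 (SE 0.51) for KO, with an edgeR adjusted p of 1.78e-05, and the count ratio of HZ to WT was 0.0592 (95% counting interval 0.0157 to 0.159; edgeR adjusted p 3.60e-07). In stimulated cells Il1a was 11.3-fold lower in KO (log2 difference -3.49, SE 0.37, edgeR adjusted p 4.25e-11) and 3.14-fold lower in HZ (log2 difference -1.65, SE 0.31, edgeR adjusted p 3.06e-05). KO was also below HZ after stimulation, by a log2 difference of -1.84 (SE 0.39, edgeR adjusted p 0.000196). Before stimulation these groups, at 5 and 6 against 1 and 3 counts, had a log2 difference of 1.29 (95% interval -0.51 to 3.10; edgeR adjusted p 0.230). The summed level of the 3 dendritic cell markers found in the table of 5 listed was likewise higher in WT, at 4.34 to 7.58 CPM over the WT libraries and 0.791 to 1.84 CPM over the HZ and KO libraries. That sum was nearly all Itgax, while Flt3 and Cd209a had at most 1 count in any library. On stimulation the mean of Itgax went from 6.59 to 4.66 CPM in WT, from 1.60 to 1.06 in KO and from 1.30 to 1.53 in HZ, whereas Il1a rose in each. The part of these cells in the difference in Il1a was not tested.

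Il1b was also induced in each genotype, but WT cells had the least of it, where they had the most Il1a. Unstimulated cells had 18 and 11 counts of Il1b in WT, 157 and 140 in HZ, with 122 and 101 in KO. Stimulated cells had 137 and 197 counts in WT, 1199 and 1107 in HZ, with 1252 and 1245 in KO. The unstimulated HZ and KO libraries, at 2.85 to 4.52 CPM, were just below the stimulated WT libraries at 4.61 and 6.61 CPM. The stimulated HZ and KO libraries were at 36.5 to 45.0 CPM and did not overlap any other group.

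On stimulation the log2 fold change of Il1b was 3.71 (SE 0.24; edgeR adjusted p 2.73e-18) in WT, 3.08 (SE 0.13; edgeR adjusted p 1.23e-25) in HZ and 3.85 (SE 0.13; edgeR adjusted p 8.22e-29) in KO. Relative to WT, Il1b was 7.11-fold higher in unstimulated KO cells (log2 difference 2.83, SE 0.26, edgeR adjusted p 6.56e-13) and 10.2-fold higher in unstimulated HZ cells (3.35, SE 0.25, edgeR adjusted p 2.62e-16). After stimulation it was 7.86-fold higher in KO (log2 difference 2.97, SE 0.13, edgeR adjusted p 9.70e-25) and 6.58-fold higher in HZ (2.72, SE 0.13, edgeR adjusted p 5.31e-23). KO and HZ were closer to each other. Their log2 difference was -0.52 (SE 0.16) before stimulation, which passed the edgeR test (adjusted p 0.00732) but not the fold threshold, and 0.25 (95% interval 0.04 to 0.47; edgeR adjusted p 0.0690) after it.

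Macrophages and monocytes are strong producers of IL-1 beta, and the summed level of their 9 markers was lowest in the WT libraries in each condition. It was 9.08 to 10.5 CPM in unstimulated WT, 16.1 to 17.8 in HZ and 15.5 to 17.0 in KO, and after stimulation 14.1 to 14.9 in WT, 17.3 to 17.4 in HZ and 17.4 to 21.9 in KO. Between 6 and 8 of the 9 markers were detected in a group, and Lyz2, Adgre1, Cd14 and Fcgr1 carried the sum. The markers did not move together. Lyz2 was lowest in WT, at 4.26 CPM against 10.2 in HZ and 10.9 in KO unstimulated and 4.61 against 7.12 and 8.37 stimulated, whereas Fcgr1 was highest in WT, at 0.982 against 0.410 and 0.589 CPM unstimulated and 1.43 against 0.988 and 0.691 stimulated. The mean of Csf1r was also highest in WT in both conditions, and that of Cd14 in unstimulated cells. In stimulated cells Cd14 was lowest in WT, at 1.87 CPM against 2.79 in HZ and 4.44 in KO. Adgre1 was at 3.54 CPM in WT, 5.85 in HZ and 4.08 in KO unstimulated, and at 6.05, 6.45 and 5.91 stimulated. The defining markers Mrc1, C1qa and C1qb had 0 counts in every KO library and at most 5 counts in any library. The part of these cells in the level of Il1b was not tested.

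The balance of the 2 IL-1 ligands thus differed between the genotypes as labelled. The ratio of Il1b to Il1a in FPKM was 0.749 and 0.485 in the unstimulated WT libraries and 0.945 and 1.32 in the stimulated ones. In KO it was 29.6 and 29.4 unstimulated and 140 and 78.8 stimulated, and in stimulated HZ it was 21.8 and 25.6. Unstimulated HZ gave 229 and 67.9, ratios that rest on 1 and 3 counts of Il1a. Every HZ and KO library was thus above every WT library.

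**Figure D2:**
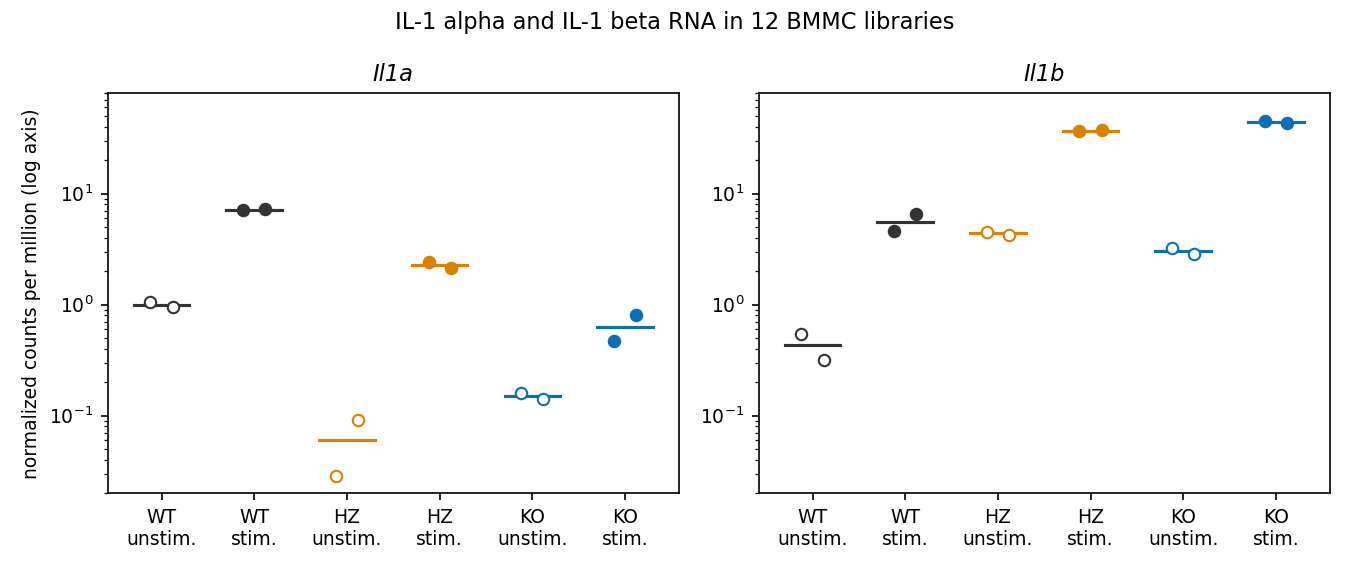
CPM of Il1a (left) and Il1b (right) on a log axis in the 6 groups, with 1 point per library and a bar at the mean of 2 libraries. Il1a is highest in WT, at 7.19 CPM after stimulation, and Il1b is highest in stimulated HZ and KO, at 37.0 and 44.1 CPM.

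The antagonist and the alarmin were close to the floor in these cells. Il1rn had 1 and 0 counts in unstimulated WT and 2 and 1 in stimulated WT, and 0 counts in all 8 HZ and KO libraries. Il33 had 0 and 1 counts in unstimulated WT, 0 and 0 in HZ, with 4 and 1 in KO, and after stimulation 8 and 0 in WT, 9 and 2 in HZ, with 1 and 3 in KO. A count of 0 allows up to 3 counts, which is 0.0800 to 0.108 CPM in these libraries. Neither gene passed the filter on low counts, and neither was tested.

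Among the receptors, Il1r1, the signalling receptor for IL-1, was likewise near the floor. It had 2 and 7 counts in unstimulated WT, 6 and 5 in HZ, with 1 and 1 in KO, and 4 and 2, 5 and 0, and 0 and 0 counts in the stimulated groups in the same order. It did not pass the filter and was not tested. The fewest counts were in KO. In unstimulated cells the ratio of KO to WT, 2 against 9 counts in all, was 0.207 (95% counting interval 0.0218 to 1.00) and that of KO to HZ, 2 against 11, was 0.169 (0.0182 to 0.773). With 0 counts in stimulated KO, the upper limits of these ratios were 0.893 against WT and 1.20 against HZ. In the 9 libraries with a count of Il1r1, the FPKM of the decoy receptor Il1r2 was 275 to 2088 times that of Il1r1.

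Il1r2 rose on stimulation in WT and KO, and in HZ it was higher by less than 2-fold. The unstimulated libraries had 841 and 843 counts in WT, 1180 and 1115 in HZ, with 814 and 740 in KO, and the stimulated ones had 1937 and 1827, 2017 and 1767, and 1551 and 1492. The level rose from 24.7 ± 0.910 to 63.3 ± 2.73 CPM in WT, a log2 fold change of 1.36 (SE 0.07; edgeR adjusted p 2.48e-22), and from 21.3 ± 0.602 to 53.8 ± 2.76 CPM in KO, a log2 fold change of 1.34 (SE 0.07; edgeR adjusted p 1.01e-21). By limma on log2(FPKM + 1) these changes were 0.98 and 0.97, just under the 2-fold threshold, with adjusted p of 1.51e-08 and 1.61e-08. In HZ it went from 33.9 ± 0.118 to 60.6 ± 1.19 CPM. That log2 fold change of 0.84 (SE 0.07; edgeR adjusted p 1.67e-15) was under the 2-fold threshold. Unstimulated HZ stood above the other unstimulated groups, and KO was 1.59-fold lower than HZ (log2 difference -0.67, SE 0.07, edgeR adjusted p 5.29e-11). Unstimulated HZ was above WT by 0.45 on the log2 scale (edgeR adjusted p 3.75e-07), and the log2 difference of KO from WT was -0.22 unstimulated (edgeR adjusted p 0.0137) and -0.23 stimulated (edgeR adjusted p 0.00273), each short of the fold threshold.

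Il1rl1, the most abundant member, changed little in fold terms. It had 160562 and 174838 counts in unstimulated WT, 230908 and 214090 in HZ, with 195245 and 184233 in KO, and 190216 and 185553, 208830 and 188371, and 196131 and 204086 counts in the stimulated libraries in that order. After normalization the level was 4922 ± 107 CPM in unstimulated WT and 6317 ± 122 CPM in stimulated WT, 5200 ± 10.2 and 7070 ± 29.7 CPM in KO, and 6570 ± 111 and 6368 ± 6.17 CPM in HZ. Both unstimulated HZ libraries were above both stimulated WT libraries. The log2 fold change on stimulation was 0.36 (SE 0.02; edgeR adjusted p 5.28e-22) in WT, 0.44 (SE 0.02; edgeR adjusted p 1.30e-25) in KO and -0.05 (SE 0.02; edgeR adjusted p 0.0293) in HZ. None reached 2-fold, and scaling to library totals, which moved the median of all genes by -0.31, -0.23 and -0.29 on the log2 scale in WT, HZ and KO, gave 0.05 in WT, 0.15 in KO and -0.28 in HZ. Gene counts do not separate the membrane and soluble forms of ST2.

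Il1rap, the accessory chain shared by the IL-1 and IL-33 receptors, stood out in unstimulated HZ cells. The unstimulated libraries had 647 and 853 counts in WT, 1411 and 1337 in HZ, with 922 and 951 in KO, whereas the stimulated ones had 743 and 653, 757 and 723, and 725 and 720. In CPM the 2 unstimulated HZ libraries, at 40.6 and 40.5, were above all others, which lay between 19.5 and 26.8. The HZ level was 1.85-fold that of WT (log2 difference 0.88, SE 0.09, edgeR adjusted p 5.54e-12), and KO was 1.58-fold lower than HZ (-0.66, SE 0.09, edgeR adjusted p 1.34e-08). Without the first unstimulated KO library the latter was -0.60, short of the fold threshold. On stimulation Il1rap had a log2 fold change of -0.77 (SE 0.09; edgeR adjusted p 1.57e-10) in HZ, under the 2-fold threshold, which it passed when scaled to library totals. In WT the change was 0.09 (95% interval -0.09 to 0.28) and in KO -0.01 (95% interval -0.19 to 0.17), with edgeR adjusted p of 0.435 and 0.954.

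**Figure D3:**
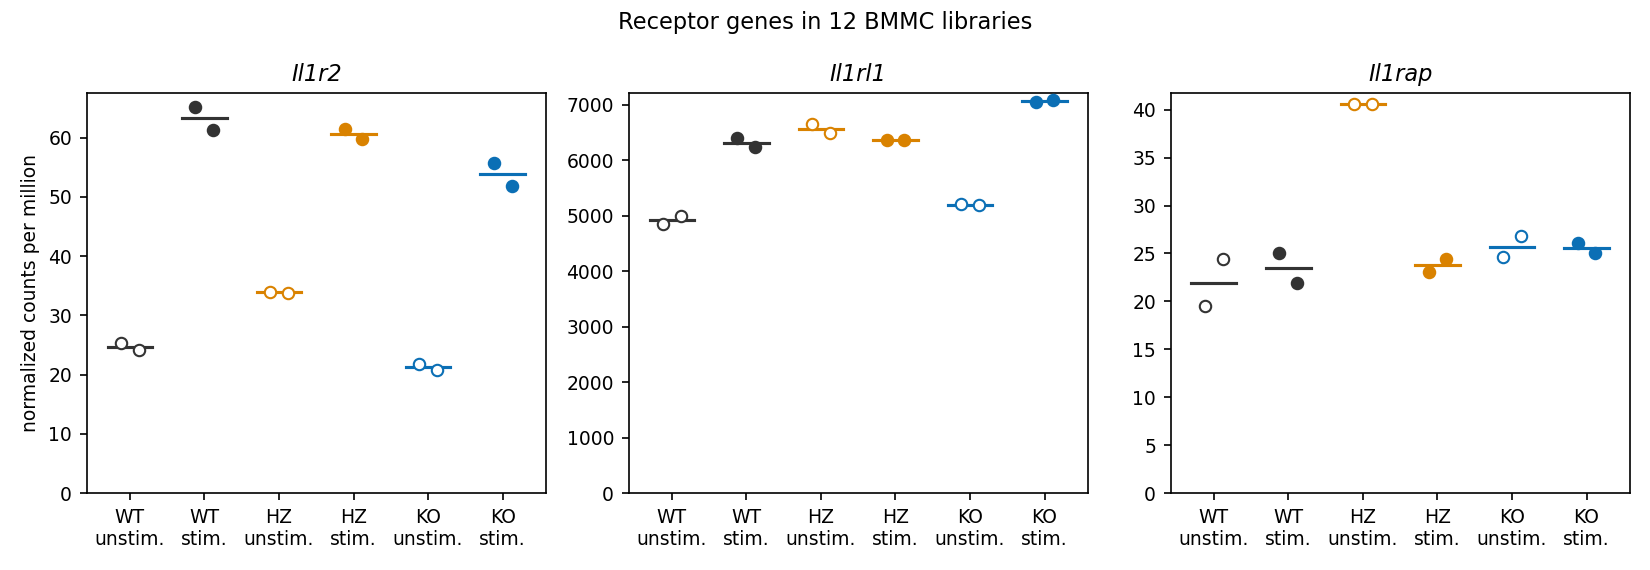
CPM of Il1r2, Il1rl1 and Il1rap in the 6 groups on linear axes from 0, with 1 point per library and a bar at the mean of 2 libraries. Il1r2 is higher in every stimulated library than in any unstimulated one, and unstimulated HZ is the highest group for Il1rap at 40.6 CPM.

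Over the 5 members that passed the filter, of 8, the calls were set beside the share of all 12208 tested genes called in the same direction. A call on stimulation needed an adjusted p below 0.05 and a change of at least 2-fold. In WT 3 members rose, Il1a, Il1b and Il1r2, where 3.71% of all genes did. In HZ 2 members rose, Il1a and Il1b, where 7.02% of all genes did. In KO the 3 genes called in WT rose, where 3.73% of all genes did, and no member was called lower in any genotype by edgeR, DESeq2 or limma, where 3.06% (WT), 7.28% (HZ) and 2.88% (KO) of all genes were. At an unadjusted p below 0.05 and with no fold threshold, 0 members were lower in WT and KO and 2 in HZ. The median log2 fold change of the 5 members was 1.36 in WT, 0.84 in HZ and 1.34 in KO, beside -0.01, -0.0048 and -0.0068 for all genes tested.

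A call between genotypes needed an adjusted p below 0.05 and a fold of at least 1.5 or at most 0.66. Against WT, KO had 1 member higher, Il1b, and 1 lower, Il1a, in unstimulated cells, where 4.96% of all genes were higher and 7.72% lower. The same members were called in stimulated cells, where 5.44% of all genes were higher and 7.22% lower. HZ against WT had 2 members higher in unstimulated cells, Il1b and Il1rap, and 1 lower, Il1a, beside 7.63% and 9.11% of all genes. In stimulated cells HZ had Il1b higher and Il1a lower, beside 3.56% and 4.33%. KO against HZ had 2 members lower in unstimulated cells, Il1r2 and Il1rap, beside 4.77% of all genes, and 1 lower in stimulated cells, Il1a, beside 3.51%. None was higher in KO than in HZ by edgeR, DESeq2 or limma, where 4.83% of all genes were unstimulated and 1.81% stimulated, and at an unadjusted p below 0.05 without a fold threshold 0 and 2 members were. These comparisons share groups, so their calls are not independent of one another.

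**Figure D4:**
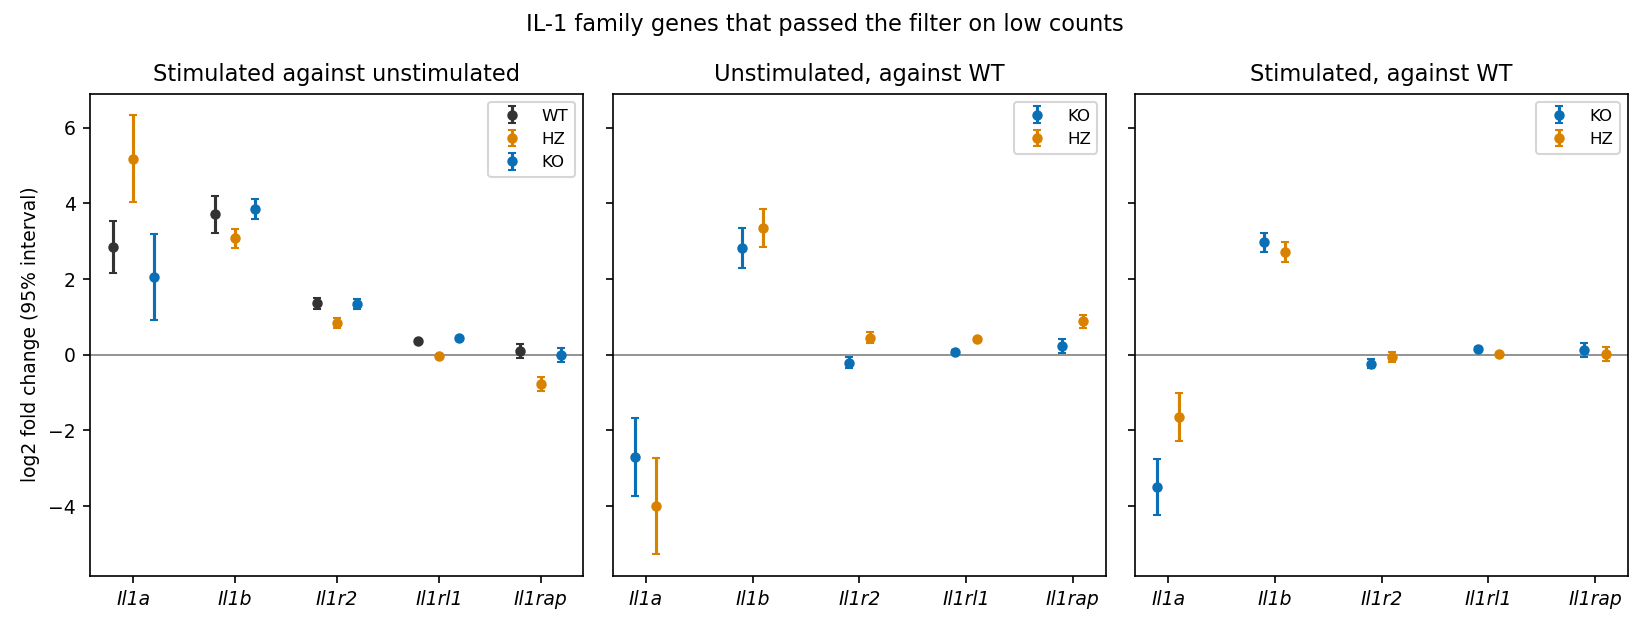
Log2 fold change with its 95% interval for the 5 tested members, for stimulated against unstimulated cells in each genotype (left) and for KO and HZ against WT in unstimulated (middle) and stimulated cells (right). Il1a lies below 0 and Il1b above 0 for KO and HZ against WT in both conditions. The receptor estimate farthest from 0 there is that of Il1rap in unstimulated HZ, at 0.88 (95% interval 0.71 to 1.06).

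Whether the response to stimulation itself differed between genotypes was asked with an interaction term. Between KO and WT the response of Il1b differed by 0.14 on the log2 scale (95% interval -0.54 to 0.83; edgeR adjusted p 0.882), that of Il1a by -0.80 (-2.20 to 0.61; edgeR adjusted p 0.586), that of Il1r2 by -0.02 (-0.21 to 0.18; edgeR adjusted p 0.947) and that of Il1rap by -0.10 (-0.36 to 0.16; edgeR adjusted p 0.720). The response of Il1rl1 was 0.08 larger in KO (SE 0.03; edgeR adjusted p 0.0322), a call that was kept in only 2 of 8 fits that left out 1 library. This was 1 of 5 tested members, where 9.27% of all genes had a different response, 5.44% a larger and 3.83% a smaller one in KO. No member had a smaller response in KO by edgeR or DESeq2 or at an unadjusted p below 0.05. On log2(FPKM + 1) limma called a smaller response of Il1a in KO (-1.21, adjusted p 5.85e-05) and a larger one of Il1b (1.33, adjusted p 0.000334), and it did not call Il1rl1 (0.10, adjusted p 0.0878). On log2(FPKM + 0.1) limma gave -1.30 for Il1a (adjusted p 0.0447) and 0.43 for Il1b (adjusted p 0.387).

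The change between unstimulated and stimulated libraries differed between HZ and both other genotypes for most members. Of all genes, 38.5% differed in this response between HZ and WT and 41.5% between KO and HZ. Against WT, 1 member had a larger response in HZ, where 19.9% of all genes did, and 3 had a smaller one, where 18.6% of all genes did. The smaller responses were those of Il1r2 (-0.52, SE 0.09, edgeR adjusted p 1.48e-05), Il1rl1 (-0.41, edgeR adjusted p 9.08e-18) and Il1rap (-0.87, SE 0.13, edgeR adjusted p 2.31e-07). Unstimulated HZ was above WT for these genes, by 0.45, 0.42 and 0.88 on the log2 scale in that order. In stimulated cells the differences of HZ from WT were -0.06, 0.01 and 0.02, so the smaller responses lay in the unstimulated levels. The larger response was that of Il1a (2.34, SE 0.78, edgeR adjusted p 0.0110). It rested on the low unstimulated counts in HZ, and without the first unstimulated HZ library it was 1.75, with an edgeR adjusted p of 0.119. Against HZ, KO had 4 members with a larger response and 1 with a smaller one, beside 20.2% and 21.3% of all genes. Il1b (0.78, SE 0.19, edgeR adjusted p 0.000953) was among the 4 with Il1r2, Il1rl1 and Il1rap, and Il1a (-3.14, SE 0.96, edgeR adjusted p 0.00579) was the smaller.

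Other genes of the pathway were read from a list of 41, of which 33 were in the table and 32 were tested. In WT cells 3 of the 32 rose on stimulation and 1 fell, beside 3.71% and 3.06% of all genes tested. Nfkbiz, an inducible nuclear regulator of NF-kappa B that is a target of IL-1 receptor signalling, had 1621 and 1750 counts before and 39743 and 40469 after stimulation, a log2 fold change of 4.77 (SE 0.03). Zc3h12a, an RNase that degrades cytokine mRNA, rose by 1.82 on the log2 scale (SE 0.07), and Nlrp3, the sensor of the inflammasome that activates the protease for IL-1 beta, rose by 1.18 (SE 0.03). Tifa was the gene that fell (-1.66, SE 0.64), at 32 and 37 counts before and 1 and 18 after stimulation, and DESeq2 did not call it. In KO 5 rose, adding Casp4, an inflammatory caspase (1.71, SE 0.14), and Tollip (1.02, SE 0.03), and 1 fell, the ubiquitin ligase gene Peli3 (-1.23, SE 0.42), beside 3.73% and 2.88% of all genes. In HZ 3 rose, Nfkbiz (6.01), Nlrp3 (1.64) and Zc3h12a (2.34), and 6 fell, among them Il18r1, a receptor chain for IL-18 and a neighbour of Il1rl1 (-1.21, SE 0.05), and Il1rl2, the IL-36 receptor (-1.23, SE 0.39), beside 7.02% and 7.28% of all genes.

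Between genotypes, KO against WT had none of 32 called in unstimulated cells by edgeR, DESeq2 or limma, although 16 had an unadjusted p below 0.05, beside 4.96% of all genes higher and 7.72% lower. In stimulated cells edgeR called 3 higher and none lower (at an unadjusted p below 0.05, 13 higher and 5 lower, and by DESeq2 2 higher and 1 lower), namely Tifa (2.15, SE 0.63), Casp4 (0.84, SE 0.13) and Irak3, an inhibitory kinase of the pathway (0.72, SE 0.13), beside 5.44% of all genes higher and 7.22% lower. Tifa had 1 and 18 counts in stimulated WT and 32 to 49 in KO. HZ against WT had 4 higher and 2 lower in unstimulated cells, with Il18r1 (0.74, SE 0.05), Sigirr, an inhibitory receptor of the family (0.63, SE 0.10), and Casp4 (0.87, SE 0.14) higher and Nfkbiz (-0.94, SE 0.04) and Zc3h12a (-0.66, SE 0.08) lower, beside 7.63% and 9.11% of all genes. In stimulated cells HZ had none called against WT by edgeR, DESeq2 or limma, and 16 had an unadjusted p below 0.05, beside 3.56% of all genes higher and 4.33% lower. Il18r1, like Il1rap, was highest in unstimulated HZ, at 171 CPM there and 72.1 to 102 CPM in the other groups. KO against HZ had 2 higher and 3 lower unstimulated, beside 4.83% and 4.77% of all genes, and 1 higher stimulated, beside 1.81%. The response to stimulation was larger in KO than in WT for 7 of the 32 and smaller for none (2 at an unadjusted p below 0.05, and none by DESeq2 or limma), beside 5.44% and 3.83% of all genes. It was larger in HZ than in WT for 6 and smaller for 9, beside 19.9% and 18.6%, and larger in KO than in HZ for 15 and smaller for 5, beside 20.2% and 21.3%. Among the other ligand genes on the list only Il18 was in the table, with 0 to 10 counts.

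The genes whose pattern was most like that of a member were ranked by Pearson r of log2 CPM over the 12 libraries among 9854 genes, for the 4 members with a mean of at least 100 counts. The libraries share groups and a scaling, so r is a description. Il1b was most like Rasl11a (r = 0.978), Foxc1 (0.976) and Rbpms2 (0.974). Rasl11a had 9 counts in each unstimulated WT library, 52 to 67 in unstimulated HZ and KO, 101 to 120 in stimulated WT and 268 to 426 in stimulated HZ and KO. Il1r2 was most like Papss1 (0.989), Coro2a (0.982) and Tmem68 (0.980), and Il1rl1 was most like Bcl2 (0.985), Usp40 (0.978) and Chst11 (0.970). Il1rap was most like Adk (0.971), B3gnt2 (0.963) and Cmas (0.958). B3gnt2 stood at 103 CPM in unstimulated HZ and at 51.7 to 64.4 CPM in the other groups.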

How the data were processed

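RNA from 12 BMMC libraries was extracted with TRIzol, made into libraries with the VAHTS Universal V6 kit and sequenced. Per the labels, the authors' processing notes name fastp, HISAT2, HTSeq and the GRCm39 build, and versions, annotation and the strand setting are not given in the sources used here. The authors deposited raw counts per gene and FPKM. No column was left unused. From the counts, 12208 of 16234 genes passed filterByExpr, libraries were scaled by TMM and 6 group means were fitted with edgeR 4.0.16 in R 4.3.3 (quasi-likelihood test, 2-sided, Benjamini-Hochberg adjustment over all tested genes, pooled over all 12 libraries with 6 residual degrees of freedom). The spread of each gene was moderated by that of all tested genes, which added a median of 38.9 prior degrees of freedom to the tests and intervals. CPM were computed on TMM-scaled totals. Intervals of count ratios are exact and cover counting error only. Without strand, reads of Il1a, Il1b, Il33, Il1r2 and Il1rap cannot be told apart from those of genes that overlap them in RefSeq (Gm14023, Il1bos, Gm41832, Gm16894 and Gm20319), which have no counts in the table.

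The 8 members, the 41 pathway genes and the marker lists were chosen with earlier results of these data known. All members were named whatever their values, pathway genes only where called, at most 6 in each direction, and like genes as the 3 of highest r, where both means reached 100 counts. The scripts were tested on simulated data. Alternatives were DESeq2 1.42.0, its size factors, library totals, other filters, thresholds and prior counts, a fit on only the groups compared, limma 3.58.1 on log2(FPKM + 1) and log2(FPKM + 0.1), replicate blocks, and leaving out each library. The limma fits kept genes with a mean of at least 0.5 FPKM, unless stated.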

Additional observations from a re-analysis of the deposited data

Results flagged for a closer look

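A difference in the response to stimulation between genotypes, tested by an interaction term in edgeR, marked the following members for a closer look. The response of Il1rl1 was larger in KO than in WT by 0.0833 on the log2 scale. Between HZ and WT the differences on that scale were 2.34 for Il1a, -0.516 for Il1r2, -0.405 for Il1rl1 and -0.868 for Il1rap. Between KO and HZ they were -3.14 for Il1a, 0.776 for Il1b, 0.498 for Il1r2, 0.489 for Il1rl1 and 0.764 for Il1rap. All of the HZ differences involve the same 2 unstimulated and 2 stimulated HZ libraries, and 38.5% (against WT) and 41.5% (against KO) of all tested genes passed the same test.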

How the results depend on the processing

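Deviations of same-numbered libraries correlated at r = -0.0515 to 0.0667 over 15 pairs of groups. Between the unstimulated and stimulated libraries of a genotype, r was -0.0281 in WT, 0.0667 in HZ and -0.0118 in KO. Such values cannot show whether same-numbered libraries came from the same mouse or culture. A fit with the replicate number as a block left the member counts as they were, with 3 members higher on stimulation in WT, and within genotype it was not run for comparisons between genotypes. With Il1a at 1 to 3 counts in unstimulated HZ and 5 and 6 in KO, depth limits its folds. A minimum of 10 counts in every library drops Il1a, which left 1 member higher on stimulation in HZ, 0 lower in KO against WT unstimulated, HZ against WT unstimulated, KO against WT stimulated, HZ against WT stimulated and KO against HZ stimulated, and 0 with a larger response in HZ than in WT or a smaller one in KO than in HZ.

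On log2(FPKM + 1), with or without a filter, limma called 2 members higher on stimulation in WT, where Il1r2 was 0.98, 1 in HZ and 1 in KO, 0 lower in KO against WT and 0 in KO against HZ (both unstimulated), and 1 with a smaller response in KO than in WT. There the response difference between HZ and WT turned to -0.46 for Il1a (adjusted p 0.00836 and 0.00510) and 0.74 for Il1b (0.00274 and 0.0183), a scale that compresses low values by construction. On log2(FPKM + 0.1), limma called 0 larger and 1 smaller response in KO than in WT and 0 larger in HZ than in WT. DESeq2 and an adjusted p below 0.01 gave 0 larger responses in KO than in WT, and the latter also 0 in HZ. Library totals gave 1 member lower on stimulation in HZ. Without the fold threshold, 2 members were lower on stimulation in HZ, 3 higher and 2 lower in KO against WT unstimulated, 4 higher in HZ against WT unstimulated, 4 lower in KO against HZ unstimulated, 2 higher and 2 lower in KO against WT stimulated, and 1 higher and 2 lower in KO against HZ stimulated.

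Leaving out 1 library gave 0 to 1 members with a larger response in KO than in WT and 0 to 1 in HZ than in WT. Il1b passed the fold threshold in KO against HZ unstimulated without the first unstimulated KO library (-0.62, edgeR adjusted p 0.0120), and its response differed between HZ and WT without the first stimulated WT library (-0.87, edgeR adjusted p 0.0237).

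Values that passed no threshold changed sign as follows. Il1rap on stimulation in WT was -0.21 on library totals, -0.14 and -0.20 by limma with pseudocounts of 1 and 0.1, and -0.0546 to 0.278 with 1 library left out. In KO it was 0.0045 by DESeq2, 0.0046 with its size factors and -0.0705 to 0.0543 with 1 library left out. For HZ against WT stimulated, with DESeq2, its size factors and the fit on only those groups, Il1rl1 was -0.0107, -0.0107 and -0.0062 (-0.0051 to 0.0322 with 1 library left out) and Il1rap -0.0049, -0.0051 and -0.00050 (-0.0718 to 0.116). The response difference between KO and WT for Il1r2 was 0.0013 on library totals and 0.00063 by limma on log2(FPKM + 0.1), and with 1 library left out it was -0.0708 to 0.0324 for Il1r2, -0.29 to 0.47 for Il1b and -0.30 to 0.0457 for Il1rap.

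Counts over all genes moved by more than 1.5 times under the following settings. Without the fold threshold they were 5530, 7864 and 4983 on stimulation in WT, HZ and KO, 5441, 6274 and 5515 for KO against WT, HZ against WT and KO against HZ unstimulated, and 4927, 4266 and 3040 stimulated. In the same orders, limma on log2(FPKM + 1) gave 353, 768 and 389, then 801, 1132 and 590, then 730, 405 and 270, and without a filter 355, 770 and 389, then 824, 1162 and 597, then 745, 414 and 266. For the response in KO against WT, they were 621 at an adjusted p below 0.01, 716, 606 and 652 by limma, and 698 without the second unstimulated KO library, against 1132 by edgeR. The cause was not tested.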
